A study of Mus musculus with 12 samples.

Results

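The 10 genes described here build and crosslink the elastic fibre: *Eln*, *Fbn1* and *Mfap4* for the fibre itself, *Fbln5*, *Efemp2*, *Ltbp4* and *Emilin1* for its assembly, and *Lox*, *Loxl1* and *Loxl2* for its crosslinking. They were picked by gene symbol from the 55487 genes of the count table, and each symbol matched 1 row. RNA-Seq of whole lung was available for 12 C57BL/6J mice that all carried the miR-30a -/- genotype, so no wild-type lung was analysed here. Neonatal mice had been exposed to hyperoxia, which is 95% oxygen, from postnatal day (PND) 1 to PND 5 or had stayed in room air, and lungs were taken on PND 21. Each of the 4 groups (room air males, hyperoxia males, room air females, hyperoxia females) had 3 lungs, and sex and animal number come from the sample titles. The mice lack *miR-30a* in all cells, since the genotype is not restricted to a cell type by the labels. The *Mir30a* row held 0 counts in all 12 lungs, and with no wild-type lung beside it that count is no check of the genotype.

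Elastic fibres let the lung recoil after each breath, and in the neonatal period they are laid down at the tips of the growing alveolar septa. Secreted tropoelastin is gathered on a scaffold of fibrillin microfibrils with the help of fibulins and other matrix proteins, and lysyl oxidases then crosslink it into an insoluble polymer. Most elastin is made early in life by smooth muscle cells, fibroblasts and myofibroblasts, and the finished fibre turns over slowly, so transcript levels describe ongoing synthesis rather than the fibre already in place.

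The sequence of the deleted microRNA and its matches in the member genes are shown because every lung here lacks it. Mature miR-30a-5p lies at chr1:23272274-23272295 on the plus strand (GRCm38.p6, RefSeq). Its seed, bases 2 to 8, is in capitals. Among the microRNA sequences searched, miR-30c-5p, miR-30e-5p and miR-384-5p have the same seed, and other microRNAs may share it. The complement of that seed, TGTTTAC, was searched on the sense strand of the longest annotated 3′ untranslated region of each gene (GENCODE mouse release 21). It was found in 3 of the 10 members, *Mfap4*, *Fbln5* and *Lox*, and in 13.8% of the 21028 genes with such a region. The windows around the *Mfap4* match (chr11:61488770-61488798, plus strand, GRCm38) and the *Fbln5* match (chr12:101747287-101747315, minus strand, GRCm38) follow, with the matching bases in capitals. A match is a description of the sequence only.
miR-30a-5p: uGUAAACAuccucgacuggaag
Mfap4: cattgttggtgTGTTTACcccaaccccaa
Fbln5: ccatgctttatTGTTTACaaatgtttttc

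Promoter windows, from 250 bases before to 50 after the start, were given for 5 members in 10 windows (*Fbn1*, *Emilin1*, *Ltbp4*, *Fbln5* and *Efemp2*). Those of *Fbn1* (chr2:125506389-125506688, minus strand) and *Fbln5* (chr12:101819070-101819369, minus strand), from RefSeq on GRCm38.p6, are printed because these genes moved together relative to *Eln* below. Capitals mark the GC box, GGGCGG on either strand, which occurred 1 time in the *Fbn1* window, 2 times in this *Fbln5* window and at least 1 time in 35.7% of the 32851 windows in the table. Neither window held the TATA box TATAAA on either strand, which was in 13.6% of all windows. The AP-1 site TGACTCA, in 5.2% of all windows, and the SMAD half-site CAGACA, in 21.0%, were likewise in neither, on either strand. The GC content was 60.3% for *Fbn1* and 65.7% for *Fbln5*, and the median over all windows was 52.7%. A second *Fbln5* window, at chr12:101818435-101818734, had a GC content of 48.7%, 0 GC boxes and 1 CAGACA.
Fbn1: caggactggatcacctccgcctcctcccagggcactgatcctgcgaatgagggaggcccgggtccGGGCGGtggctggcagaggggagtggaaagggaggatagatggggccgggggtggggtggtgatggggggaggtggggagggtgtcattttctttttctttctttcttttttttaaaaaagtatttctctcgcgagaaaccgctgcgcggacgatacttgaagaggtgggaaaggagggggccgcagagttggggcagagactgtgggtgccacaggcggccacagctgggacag
Fbln5: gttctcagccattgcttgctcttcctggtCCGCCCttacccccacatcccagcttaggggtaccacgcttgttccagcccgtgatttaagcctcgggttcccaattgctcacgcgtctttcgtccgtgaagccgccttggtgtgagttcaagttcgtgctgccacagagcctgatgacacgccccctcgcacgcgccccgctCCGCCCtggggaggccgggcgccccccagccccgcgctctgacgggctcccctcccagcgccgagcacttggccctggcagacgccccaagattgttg

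The values are raw read counts per gene, and CPM below are read counts scaled to library size, with libraries adjusted by the upper quartile. Libraries held 8763033 to 16741694 counts, so that 3 counts, taken as the detection floor, corresponded to 0.179 to 0.342 CPM. All 10 members were above that floor in every lung, with at least 208 counts (*Loxl2*) and up to 22252 counts (*Mfap4*). The labelled tissue was seen in every library, with the summed level of 7 lung epithelial markers between 7174 and 19829 CPM. Counts on 2003 olfactory and vomeronasal receptor genes, most of which are thought to be silent in lung, made up 0.453% to 1.04% of a library and served as a proxy for background reads. Any true expression of single receptors in lung would enter this proxy and the adjustments made with it. The lungs with the largest receptor shares were hyperoxia male 2 and room air male 1. Room air male 1 also stood apart in skeletal muscle markers, with a sum of 1752 CPM against 82.7 to 121 CPM in the others. Replicates differed by more than counting noise in every pair of lungs of a group. Nothing in the labels says more about litters, so p-values measure the spread between these animals.

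Per kilobase of exon, the order of the members was clear at the top. *Mfap4*, a microfibril-associated glycoprotein, led with a mean level of 569 CPM per kilobase (SD 137, n = 12 lungs). *Eln*, which encodes tropoelastin, followed at 128 (SD 25.8), and *Ltbp4*, which binds latent TGF-beta and fibulin-5, came next at 59.7 (SD 14.3). These first 3 genes were each separated from the next by more than 1 SD on both sides. *Fbn1*, the fibrillin of the microfibril, at 27.7 CPM per kilobase, *Lox* at 24.97, *Loxl1* at 24.4 and *Fbln5* at 16.4 formed a run. In it the ranges of mean plus and minus 1 SD of neighbours overlapped. *Emilin1*, an elastin-microfibril interface protein, at 8.19, *Efemp2*, the fibulin also called fibulin-4, at 6.98 and *Loxl2* at 5.74 were lowest. Their ranges of mean plus and minus 1 SD overlapped from each to the next, and that of *Emilin1* did not overlap that of *Fbln5* above it. Among the crosslinking enzymes *Lox* and *Loxl1* were therefore level with each other per length, and both were above *Loxl2*.

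For the lowest genes part of the count may be background. At the read density of the receptor genes, background would make up 20.3% of all *Loxl2* counts, 16.8% of *Efemp2* counts and 14.2% of *Emilin1* counts. The corresponding share was 0.204% for *Mfap4* and 0.912% for *Eln*, and between 1.93% and 7.07% for the other 5 genes. Exons of 6 members overlap another gene, by 30 bases for *Lox*, 89 for *Mfap4*, 173 for *Efemp2*, 267 for *Eln*, 308 for *Loxl2* and 2442 for *Fbn1*. These partners lie on the opposite strand, apart from 7 bases of a microRNA gene inside *Loxl2*. The strand setting of the counting is not given in the sources used here, so reads there could have been left out or shared.

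Exposure did not move any member past the threshold in either sex, and *Eln* in particular was close to level. *Eln* (chr5:134702593-134747323, minus strand, GRCm38) stood at 829, 1141 and 1087 CPM in room air males 1, 4 and 5 and at 1472, 750 and 1010 CPM in hyperoxia males 1, 2 and 3. In females it stood at 1159, 1245 and 793 CPM in room air lungs 2, 5 and 6 and at 981, 874 and 1079 CPM in hyperoxia lungs 2, 4 and 5. The groups overlapped in both sexes, and the hyperoxia males held both the highest and the lowest value of all. The log2 fold change was 0.08 (SE 0.33) in males, -0.12 (SE 0.33) in females and -0.02 (SE 0.23) in both sexes pooled, with edgeR adjusted p of 1.00, 0.868 and 0.995 over the 45828 genes tested. The pooled contrast is the mean of the male and the female difference.

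Genes counted as called had to pass edgeR's quasi-likelihood test on all 12 lungs (adjusted p below 0.05) and to differ by a factor above 1.5. By that rule 0 of the 10 members were called in males (0.0% of all genes), 0 in females (0.00218%), 0 in the pooled comparison (0.0415%) and 0 in the interaction of sex and hyperoxia (0.0%). At an unadjusted p under 0.05, 1 member passed in males (*Lox*, higher, as 0.899% of all genes were), 0 passed in females and in the pooled comparison by edgeR, and 1 passed in the interaction (*Lox*, lower in females relative to males, as 2.4% of all genes were). In either direction the shares of all genes at that threshold were 2.7% in males, 12.6% in females, 5.2% pooled and 8.46% in the interaction. DESeq2's Wald test also called 0 members in each of the 4 comparisons. At an unadjusted p under 0.05 it gave other counts, with 5 of 10 members lower in females (*Fbn1*, *Loxl1*, *Efemp2*, *Fbln5* and *Ltbp4*, against 8.52% of all genes) and *Fbn1* lower pooled (2.68%). It also gave *Lox* higher in males (0.694%) and lower in the interaction (4.01%), as edgeR did.

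**Figure D1:**
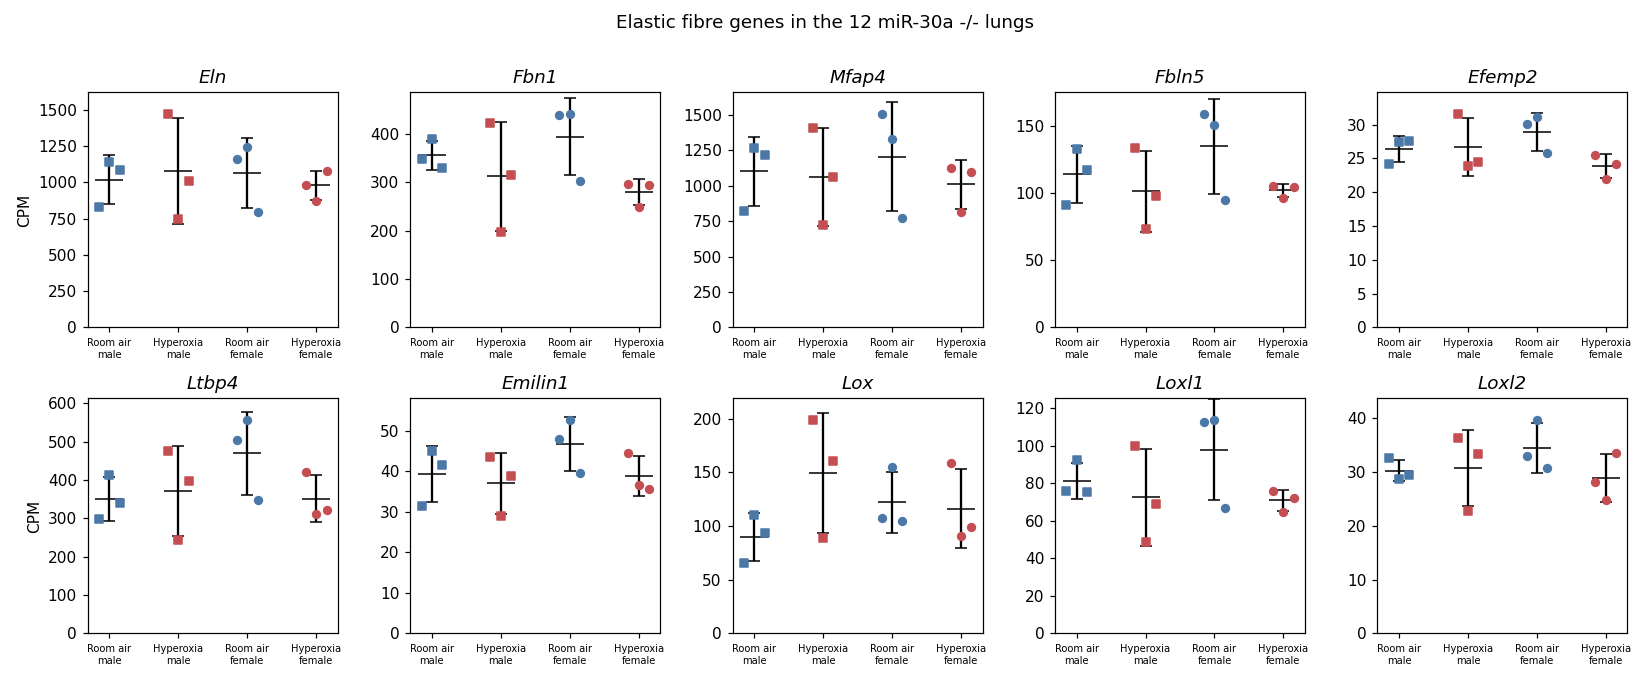
CPM of the 10 elastic fibre genes (y axes, from 0) in each of the 12 lungs, by group on the x axis, with squares for males, circles for females, blue for room air and red for hyperoxia; bars show mean and SD, n = 3. Hyperoxia males spread most for *Eln*, from 750 to 1472 CPM, and for *Lox* the hyperoxia males reach 199 CPM against at most 110 CPM in room air males.

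*Fbn1* (chr2:125300594-125507993, minus strand, GRCm38) had the largest difference in females. It was 439, 442 and 302 CPM in room air females and 296, 249 and 295 CPM in hyperoxia females, so that each hyperoxia lung was below each room air lung. The log2 fold change in females was -0.49 (SE 0.28, adjusted p = 0.429). In males the values were 348, 389 and 329 CPM in room air against 423, 197 and 316 CPM after hyperoxia, and the groups overlapped. The log2 fold change in males was -0.19 (SE 0.28, adjusted p = 1.00) and the pooled value -0.34 (SE 0.20, adjusted p = 0.927). *Mfap4* (chr11:61485431-61488900, plus strand) overlapped in both sexes, with group means between 1009 and 1204 CPM. Its log2 fold change was -0.05 (SE 0.35) in males and -0.26 (SE 0.35) in females. Without each lung in turn it ranged from -0.31 to 0.17 in males and from -0.50 to -0.06 in females. None of the 3 core genes was called in any comparison.

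Transcripts of the 4 assembly genes had negative log2 fold changes in females, none past the test, and with the receptor share as covariate *Fbln5*, *Ltbp4* and *Emilin1* were above 0 (0.07, 0.07 and 0.06). *Fbln5*, which tethers elastin to cells and microfibrils, was 91.3, 133 and 118 CPM in room air males and 134, 73.6 and 97.8 CPM in hyperoxia males. In females it was 159, 151 and 94.7 CPM in room air and 105, 96.3 and 105 CPM after hyperoxia. Both sets overlapped, since room air female 6 lay below all 3 exposed females. The log2 fold change of *Fbln5* was -0.17 (SE 0.24) in males, -0.40 (SE 0.24, adjusted p = 0.439) in females and -0.28 (SE 0.17, adjusted p = 0.927) pooled. *Efemp2* was the other gene with separate female groups, at 30.1, 31.0 and 25.8 CPM in room air and 25.5, 21.9 and 24.1 CPM after hyperoxia. Its log2 fold change was -0.28 (SE 0.15, adjusted p = 0.41) in females and 0.02 (SE 0.15) in males. In the female lungs 2 of the 10 members were without overlap in the lower direction, against 6.42% of all tested genes, and in males 0 of 10, against 3.89%.

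*Ltbp4* and *Emilin1* did not pass the test in females. *Ltbp4* ranged from 348 to 557 CPM in room air females and from 311 to 422 CPM in hyperoxia females, with a log2 fold change of -0.42 (SE 0.29, adjusted p = 0.49). *Emilin1* ranged from 39.4 to 52.7 CPM and from 35.5 to 44.4 CPM in the same groups, with a log2 fold change of -0.27 (SE 0.18, adjusted p = 0.48). Both overlapped between exposures in each sex. In males the values were 0.09 (SE 0.29) for *Ltbp4* and -0.08 (SE 0.18) for *Emilin1*.

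*Lox*, on chromosome 18, which encodes the lysyl oxidase that crosslinks elastin and collagen, had the only positive difference above 0.1 among the members. It stood at 65.4, 110 and 93.1 CPM in room air males and at 199, 88.6 and 160 CPM in hyperoxia males. Males 1 and 3 of the hyperoxia group were above every room air male, and male 2 was below 2 of them. The log2 fold change in males was 0.74 (SE 0.27, unadjusted p = 0.0116, adjusted p = 1.00 by edgeR), which is a fold change of 1.67. Leaving out 1 lung at a time gave 0.48 (without hyperoxia male 1) to 1.01 (without hyperoxia male 2). In females *Lox* was 107, 155 and 104 CPM in room air and 159, 91.1 and 99.1 CPM after hyperoxia, with overlap and a log2 fold change of -0.07 (SE 0.27, adjusted p = 0.911). The difference between the sexes, female minus male, was -0.81 on the log2 scale (SE 0.39, unadjusted p = 0.0447, adjusted p = 0.578 by edgeR), so it did not pass the correction over the whole table, and it ranged from -1.11 to -0.56 without each lung in turn. With the log2 receptor share as a covariate the difference between the sexes was -0.12 (SE 0.30), and the values were 0.58 (SE 0.19) in males and 0.46 (SE 0.22) in females.

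The other crosslinking enzymes lay on the opposite side of 0 from *Lox* in the pooled comparison. *Loxl1* (chr9:58287738-58313186, minus strand, GRCm38), a lysyl oxidase needed for elastic fibre upkeep in adult tissue, was 75.7, 92.3 and 75.4 CPM in room air males and 100, 48.5 and 68.8 CPM in hyperoxia males. In females it was 113, 114 and 66.7 CPM in room air and 75.7, 64.8 and 72.4 CPM after hyperoxia, with room air female 6 again among the exposed lungs. Its log2 fold change was -0.16 (SE 0.23) in males, -0.46 (SE 0.23, adjusted p = 0.403) in females and -0.31 (SE 0.16, adjusted p = 0.927) pooled. *Loxl2*, which crosslinks collagen IV and elastin, was at 22.6 to 39.6 CPM over all lungs, with a log2 fold change of 0.03 (SE 0.17) in males and -0.26 (SE 0.17) in females.

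Over the members together, 5 of 10 were below 0 in males, 10 of 10 in females and 9 of 10 in the pooled comparison. The median log2 fold change of the members was -0.02 in males, -0.27 in females and -0.16 pooled, and that of all tested genes was -0.01, 0.11 and 0.03. Library composition differed along with the female groups. The 3 repeat-like genes *Gm10800*, *Gm10801* and *Gm21738* took 11.2%, 7.12% and 19.7% of counts in room air females 2, 5 and 6 and 18.4%, 26.7% and 25.4% in hyperoxia females 2, 4 and 5, and the receptor share was 0.453% to 0.819% against 0.738% to 0.936%. In males the repeat-like share ranged from 17.9% to 25.7% in room air and from 8.48% to 28.5% after hyperoxia. The part of the repeat-like genes in these medians was not tested. With the log2 receptor share as a covariate, 3 of 10 members were below 0 in females, the female median was 0.06 and *Eln* turned to 0.34 (SE 0.12, adjusted p = 0.681). With background reads subtracted, 7 of 10 were below 0 in females. The direction in females thus changed with the treatment of background for 7 genes, while *Fbn1*, *Efemp2* and *Loxl2* kept their sign under all 24 alternatives run for females. Without each lung in turn the female value of *Fbn1* ranged from -0.66 to -0.41 and that of *Eln* from -0.31 to 0.00. With the covariate these 3 were nevertheless within 1 SE of 0, at -0.07 (SE 0.12) for *Fbn1*, -0.08 (SE 0.12) for *Efemp2* and -0.06 (SE 0.13) for *Loxl2*.

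**Figure D2:**
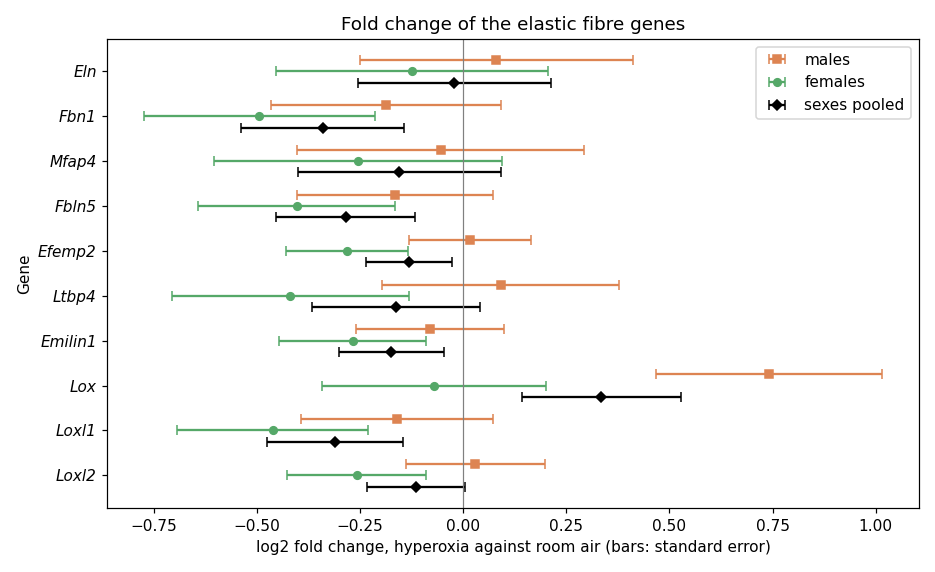
Log2 fold change of hyperoxia against room air (x axis) for each gene (y axis), with squares for males, circles for females and diamonds for the sexes pooled; bars are standard errors from edgeR. *Lox* in males lies at 0.74, the females lie below 0 for all 10 genes, and 0 genes passed the call rule.

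The lungs differed in the total share of counts that the members took, within groups as much as between them. The 10 genes together made up 0.264%, 0.352% and 0.357% of counts in room air males and 0.432%, 0.230% and 0.318% in hyperoxia males. They made up 0.394%, 0.387% and 0.261% in room air females and 0.326%, 0.255% and 0.317% in hyperoxia females. The share tended to be low in lungs with a high receptor share. With group means removed, *Eln* correlated with the log2 receptor share at Pearson's r = -0.893 (exact permutation p = 0.0123 within groups) and Spearman's rho = -0.888 (p = 0.00849), and at r = -0.81 without the 2 lungs farthest from the median. For the 9 members other than *Loxl2*, r lay between -0.947 (*Ltbp4*) and -0.849 (*Mfap4*), with permutation p from 0.000772 to 0.0193 and Benjamini-Hochberg values over the 10 relations from 0.00772 to 0.0214. *Loxl2* was looser, at r = -0.564 (permutation p = 0.18) and rho = -0.434 (p = 0.273). This relation is not particular to the members, since the median r of the 14605 genes with a mean of at least 10 CPM was -0.697 and 49.8% of them were below -0.7. In whole lung, fewer cells of a type and less RNA per cell cannot be told apart.

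**Figure D3:**
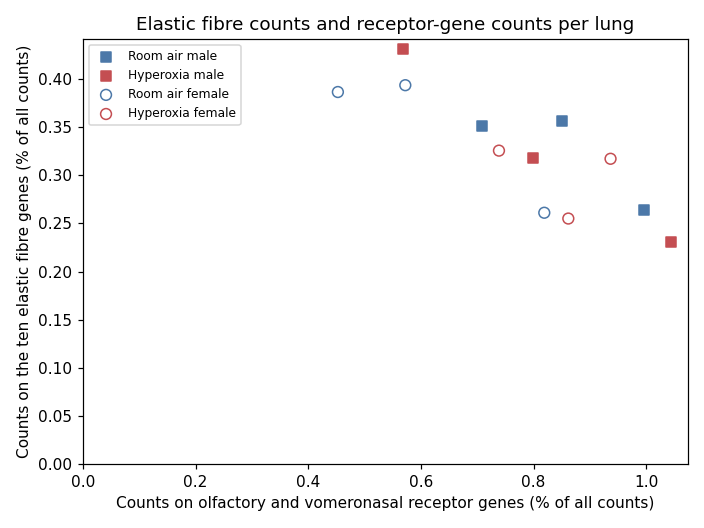
Share of counts on the 10 elastic fibre genes (y axis, percent) against the share on olfactory and vomeronasal receptor genes (x axis, percent) in the 12 lungs; filled squares are males, open circles females, blue room air, red hyperoxia. Hyperoxia male 2, with the largest receptor share of 1.04%, has the smallest elastic fibre share, 0.230%.

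The members rose and fell together from lung to lung. Over the 45 pairs of members, with group means removed, r ranged from 0.482 (*Emilin1* with *Loxl2*) to 0.971 (*Fbn1* with *Loxl1*), with a median of 0.871. Such co-movement was common, since *Emilin1*, with r = 0.855 to *Eln*, ranked only 3034 among 14604 genes by likeness to *Eln*, so it is not a result about the members. *Loxl2* was again loosest, with a median r of 0.605 over its 9 pairs. After the log2 receptor share was removed as well, the median r fell to 0.444. The closest pairs then were *Fbn1* with *Loxl1* (r = 0.908) and *Mfap4* with *Fbln5* (r = 0.896). *Lox* and *Emilin1* then had the lowest medians over their 9 pairs, 0.107 and 0.177, and *Lox* was nearest to *Emilin1* (r = 0.762) and *Ltbp4* (r = 0.632). These residual values are descriptions, given with no test.

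**Figure D4:**
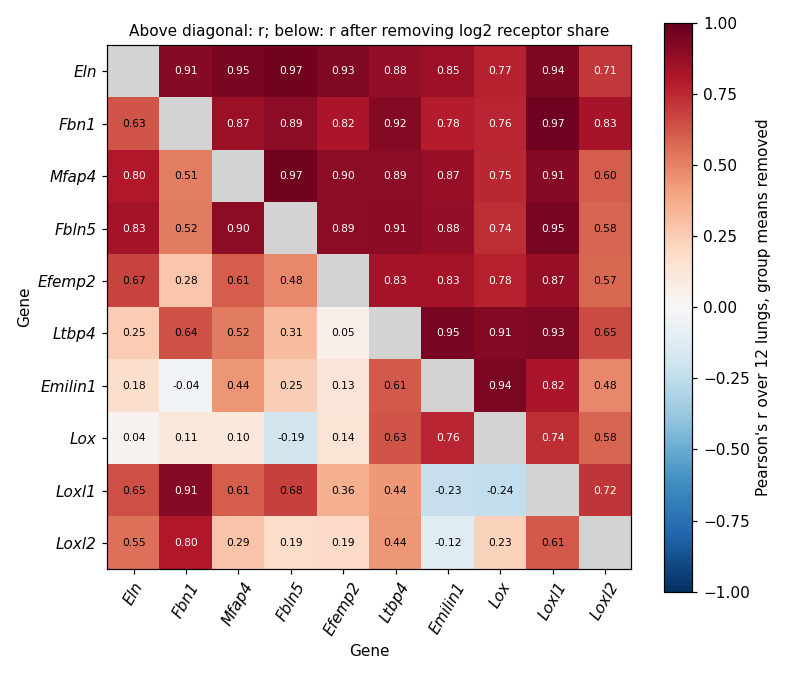
Pearson's r between pairs of members over 12 lungs with group means removed (above the diagonal) and after the log2 receptor share was also removed (below the diagonal); the colour scale runs from -1 to 1. Values above the diagonal run from 0.482 to 0.971, and the *Lox* row below it has r of 0.63 at most with the genes to its left other than *Emilin1*.

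The genes most like *Eln* over the 12 lungs, by r of group-centred log2 CPM among 14604 genes, were *Rnh1* (r = 0.986), *Cpm* (r = 0.985), *Clptm1* (r = 0.985), *Flrt3* (r = 0.983) and *Mapkbp1* (r = 0.981), none of them elastic fibre genes. In that order *Fbln5* ranked 30, *Mfap4* 168, *Loxl1* 353, *Efemp2* 518, *Fbn1* 976, *Ltbp4* 2018, *Emilin1* 3034, *Lox* 5466 and *Loxl2* 6454.

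Because the members shared this lung-to-lung movement, each was also expressed as counts per 100 *Eln* counts of the same lung, a scale that does not depend on library size. This scale was chosen after the values had been seen. On it 3 of the 9 genes were lower after hyperoxia at an exact permutation p under 0.05, with the labels permuted within sex over 400 arrangements, and 0 were higher. Of the 14604 genes with a mean of at least 10 CPM, 4.98% were lower and 0.0822% higher by the same test, and the smallest adjusted p over all of them was 0.689. Since 400 arrangements give no p under 0.005, a single gene could not have passed that correction whatever its change, and the adjusted value says nothing about any one gene.

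*Fbln5* was the steadiest of these. It stood at 11.02, 11.7 and 10.8 counts per 100 *Eln* counts in room air males and at 9.07, 9.82 and 9.69 in hyperoxia males. In females it stood at 13.7, 12.1 and 11.9 in room air and at 10.7, 11.01 and 9.72 after hyperoxia. All 6 exposed lungs were below all room air lungs of their sex. The change was -15.8%, or -0.25 on the log2 scale (SE 0.05), with a two-sided exact permutation p of 0.005, the smallest that 400 arrangements can give. The exact permutation p was also 0.005 with background subtracted. Without each lung in turn it was 0.005 too, the smallest that the 200 arrangements then left can give.

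*Loxl1* showed the same separation. Its values were 9.13, 8.09 and 6.94 counts per 100 *Eln* counts in room air males, 6.80, 6.48 and 6.81 in hyperoxia males, 9.72, 9.14 and 8.41 in room air females and 7.72, 7.41 and 6.71 in hyperoxia females. The groups did not overlap in either sex. The change was -18.2% (log2 -0.29, SE 0.07, exact permutation p = 0.005, largest p without a lung 0.015). *Fbln5* and *Loxl1* were thus 2 of 9 members without overlap in both sexes in the lower direction, against 0.671% of the 14604 genes. In males alone these 2 separated (1.11% of genes), and in females alone 4 did, *Fbn1*, *Fbln5*, *Ltbp4* and *Loxl1* (14.0% of genes).

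*Fbn1* had the largest fall among the members on this scale. In males it went from 41.9, 34.1 and 30.3 to 28.7, 26.3 and 31.3 counts per 100 *Eln* counts, with overlap between room air male 5 and hyperoxia male 3. In females it went from 37.9, 35.5 and 38.1 to 30.1, 28.5 and 27.4, without overlap. The change was -20.6% (log2 -0.33, SE 0.08, exact permutation p = 0.01, largest p without a lung 0.015). Without the 2 lungs of highest receptor share the log2 values were -0.26 for *Fbln5* (p = 0.0167), -0.23 for *Loxl1* (p = 0.0167) and -0.24 for *Fbn1* (p = 0.0333), by exact permutation over fewer arrangements. The p of *Fbln5* and *Loxl1* were the smallest that those arrangements can give.

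*Lox* lay on the other side of 0. It was 7.89, 9.63 and 8.56 counts per 100 *Eln* counts in room air males and 13.5, 11.8 and 15.9 in hyperoxia males, without overlap, as for 1.14% of genes in that direction. In females it was 9.26, 12.4 and 13.2 in room air and 16.2, 10.4 and 9.18 after hyperoxia, and the groups overlapped. Pooled, the log2 change was 0.33 (SE 0.16, exact permutation p = 0.11), and the difference between the sexes on this scale was not tested. *Ltbp4* separated in females, from 43.4, 44.7 and 43.9 to 43.0, 35.5 and 29.8, and overlapped in males (pooled exact permutation p = 0.21). The remaining genes, *Mfap4*, *Efemp2*, *Emilin1* and *Loxl2*, changed by -9.59% to -6.72%, with exact permutation p from 0.18 to 0.44. Relative to the sum of all 10 members in place of *Eln*, the log2 changes were -0.23 for *Fbn1* (p = 0.01), -0.15 for *Fbln5* (p = 0.015), -0.19 for *Loxl1* (p = 0.015), 0.43 for *Lox* (p = 0.035) and 0.10 for *Eln* itself (p = 0.05), all by exact permutation.

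**Figure D5:**
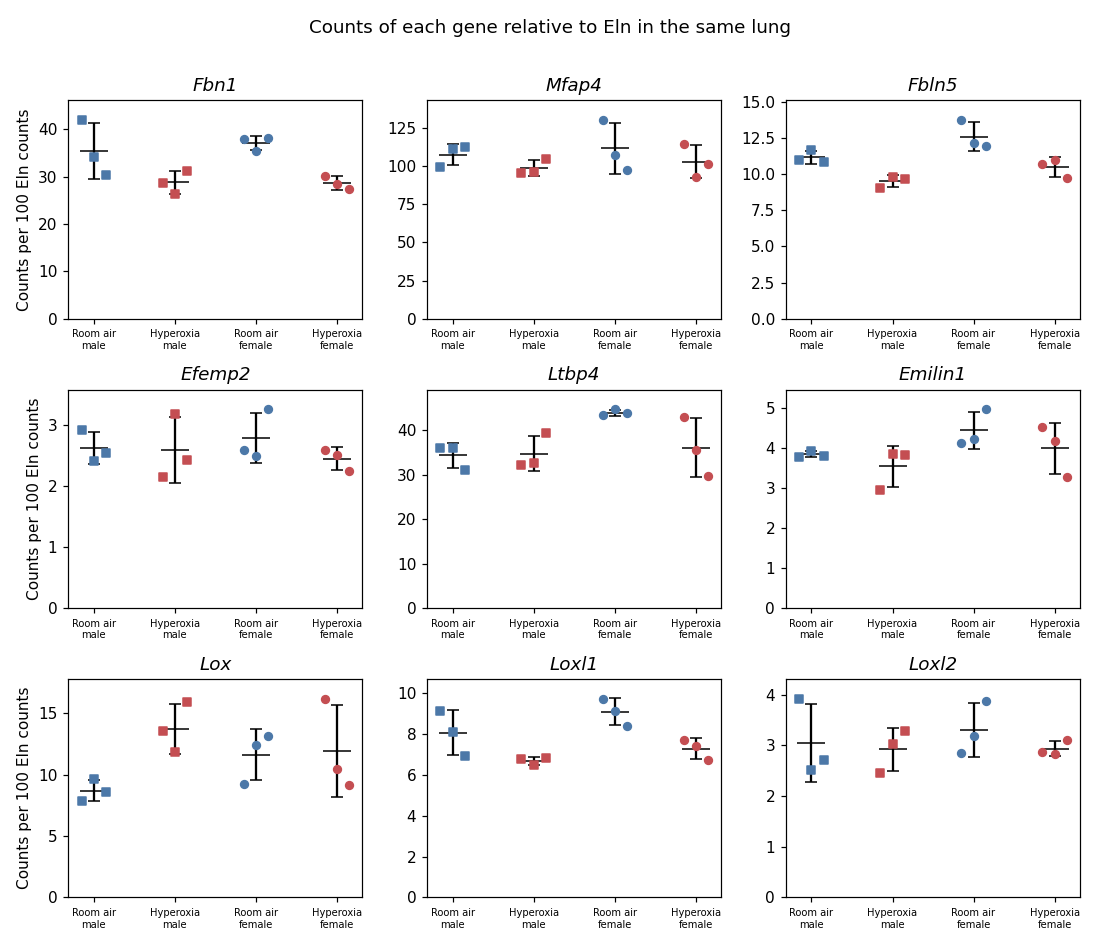
Counts of 9 genes per 100 *Eln* counts of the same lung (y axes, from 0) by group (x axis), with squares for males, circles for females, blue for room air and red for hyperoxia; bars show mean and SD, n = 3. *Fbln5* and *Loxl1* lie lower after hyperoxia in both sexes without overlap, and *Lox* in males lies at 7.89 to 9.63 in room air and 11.8 to 15.9 after hyperoxia.

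More members passed when unwanted variation was modelled, a step the study's methods name without the number of factors. A RUVr factor is computed from the residuals that the group model leaves in the 12 lungs. It lowers the residual spread by construction and largely leaves in place any difference that runs along with exposure. With 1 such factor standard errors became smaller and 6 of 10 members had an adjusted p under 0.05 in females, all lower. They were *Fbn1* (log2 -0.47, SE 0.09, adjusted p = 0.000537), *Loxl1* (-0.42, SE 0.08, 8.96e-05), *Ltbp4* (-0.40, SE 0.07, 1.78e-05), *Fbln5* (-0.37, SE 0.08, 0.000549), *Efemp2* (-0.27, SE 0.10, 0.0361) and *Emilin1* (-0.26, SE 0.09, 0.0264), by edgeR. None of these reached the fold threshold of 1.5, and 11.1% of all genes were lower in females by the same criterion. Pooled, 4 of 10 were lower, *Fbn1*, *Loxl1*, *Fbln5* and *Ltbp4*, against 4.04% of all genes. With 2 factors the same 6 and 4 genes passed (11.6% and 4.39% of all genes), and with 3 factors *Loxl2* joined in females (12.1%), *Emilin1* joined the lower genes pooled (5.42%) and *Lox* was higher pooled (0.744%). In the interaction *Ltbp4* was lower with 1, 2 and 3 factors (7.91%, 8.36% and 9.15% of genes), and *Lox* with 3. With the receptor share as covariate instead, the interaction of *Ltbp4* was 0.13 (SE 0.15), 7 of 10 members were above 0 with a median of 0.25, and 0 passed the adjusted p. With that covariate 7 of 10 members were also above 0 in females (median 0.06), and 0 passed. In males 0 of 10 passed with 1 or 2 factors, and with 3 factors *Lox* was called higher (log2 0.70, SE 0.11, adjusted p = 0.0145, with 0.498% of genes higher) and *Fbn1* was lower (log2 -0.25, SE 0.06, adjusted p = 0.0242, with 0.351% lower). *Eln* and *Mfap4* passed in 0 of these fits.

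Other genes of the pathway, 60 in 6 lists, gave 0 called genes in the 4 comparisons. Of 15 other microfibril genes, 12 were below 0 in the pooled comparison, with 2 at an unadjusted p under 0.05, both lower (2.52% of all genes were). They were *Emilin2* (log2 -0.23, SE 0.10) and *Mfap5*, a microfibril glycoprotein (-0.27, SE 0.13), each with an edgeR adjusted p of 0.927. Of 10 other fibulins and fibre-associated proteoglycans, 9 were below 0 and 3 were lower at an unadjusted p under 0.05. *Fbln1*, a fibulin found in elastic fibres and basement membranes, had a log2 fold change of -0.41 (SE 0.12, adjusted p = 0.694) and *Efemp1*, the fibulin-3 gene, one of -0.41 (SE 0.13, adjusted p = 0.77). Their median was -0.25, against 0.03 over all genes.

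Among 8 other crosslinking and enzyme-activating genes, 5 were below 0 and 0 had an unadjusted p under 0.05. The smallest p were those of *Atox1*, a copper chaperone (log2 -0.23, SE 0.13, and -0.13 without hyperoxia male 2), and *Tll1*, a procollagen C-proteinase (0.15, SE 0.10, and 0.09 without hyperoxia female 5). These counts stand against 5.2% of all genes in either direction and 2.52% lower. Among 10 elastin-degrading proteases 1 passed that threshold, *Ctss*, the elastin-cleaving cysteine protease cathepsin S, lower (log2 -0.45, SE 0.13, adjusted p = 0.595). Next was *Prtn3*, neutrophil proteinase 3 (log2 0.23, SE 0.15). Among 6 protease inhibitors *Slpi*, the secretory leukocyte protease inhibitor, passed (log2 -0.47, SE 0.19, adjusted p = 0.927), but it stood at 20.5 CPM in room air male 1 against 5.77 to 9.88 CPM in the other lungs, and without that lung the value was -0.17 (unadjusted p = 0.278 by edgeR). *Cst3*, which inhibits cysteine cathepsins, came next (-0.27, SE 0.17, and -0.16 without room air female 5). Among 11 growth factors and integrins that act at microfibrils *Itgb6*, the epithelial integrin chain that activates TGF-beta, passed (log2 -0.28, SE 0.13), and *Tgfb3* came next (-0.22, SE 0.12).

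Cell type markers lay on both sides of 0, with 0 called in any list. For the counts below, of all 45828 genes 825 were lower in males at an unadjusted p under 0.05, 2421 in females and 1157 pooled. In females all 7 lung epithelial markers were below 0 (median log2 fold change -0.56, 2 at an unadjusted p under 0.05) and so were all 6 endothelial markers (median -0.41, 1 at that threshold), while the median of the members was -0.27. Pooled, both lists were also wholly below 0, with medians of -0.21 and -0.15. In males alone, however, 5 of 7 epithelial markers (median 0.11) and 4 of 6 endothelial markers (median 0.06) were above 0. Cartilage markers were above 0 for 7 of 8 in females (median 0.23). The 8 smooth muscle markers were all below 0 in the pooled comparison, and 7 of 8 in females (median -0.19, 2 at an unadjusted p under 0.05). The smallest pooled p were those of *Cnn1* (pooled log2 -0.28, SE 0.10) and *Acta2* (pooled -0.36, SE 0.16, and -0.22 without room air male 1). The smooth muscle sum ranged from 573 to 649 CPM in room air males, 425 to 738 in hyperoxia males, 579 to 833 in room air females and 519 to 636 in hyperoxia females. Of 11 lung fibroblast markers 7 were below 0 pooled (median -0.03) and 3 in males (median 0.15), while in females 10 were (median -0.15). The smallest pooled p were those of *Col14a1* (pooled log2 -0.33, SE 0.14, and -0.20 without room air male 1) and *Pdgfra* (pooled 0.23, SE 0.20, and 0.12 without hyperoxia female 2). The fibroblast sum ranged from 1302 to 2652 CPM over all lungs. Their part in the results above was not tested. The 8 cartilage and 5 mesothelial markers summed to 105 to 154 and 116 to 203 CPM. Of 7 cardiac markers 5 were lower at an unadjusted p under 0.05 pooled (median -0.71) and 4 in females (median -0.86). All 9 skeletal muscle markers were below 0 in males (median -1.82, 6 at that threshold), where room air male 1 alone had the high sum given above. Pooled, the median was 0.09 for 6 thymus markers and -0.11 for the mesothelial markers. The smallest pooled adjusted p among all markers was that of *Myh6*, a cardiac myosin of pulmonary vein muscle (adjusted p = 0.0555, edgeR).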

How the data were processed

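Whole-lung RNA of 12 mice was sequenced. The authors trimmed reads with Trim Galore, aligned them to mm10 with STAR and counted them with featureCounts, and the deposited values are raw counts per gene, not normalized. The labels name a NEBNext directional kit and the methods a QIAseq stranded kit. The strand setting and tool versions are not given in the sources used here. ComBat-seq and RUVr, named in the methods, had not been applied to these counts. All columns matched a sample (0 without one).

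Genes passing edgeR's filterByExpr by group were kept (45828 of 55487), libraries were scaled by the upper quartile, and edgeR 4.0.16 (R 4.3.3, limma 3.58.1) fitted 4 groups to 12 lungs by quasi-likelihood, with Benjamini-Hochberg adjustment over all genes tested. Standard errors of log2 fold changes were derived from the fold change and its F statistic. Sex and exposure came from the titles. The pooled effect is the mean of the male and female differences. On simulated data with 200 changed genes among 45100, the pooled test recovered 150 of those changed by a fold of 2, with 8 false calls. Ratios were tested by exact permutation (scipy 1.17.1). Alternatives were TMM, other filters, DESeq2 1.42.0, RUVr, receptor share as covariate, background subtraction, replicate blocks and leaving out lungs. RUVr with the adjusted p alone, ratios to *Eln* and leaving out the 2 lungs of highest receptor share were chosen after seeing the data. Members and gene lists were chosen with earlier results of these data known. All members are named, and from each other list any called gene and the 2 with the smallest pooled p. For likeness to *Eln* the 5 closest genes with a mean of at least 10 CPM are named. Counting intervals and floors cover counting error only. No sequence of *Lox* is shown.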

Additional observations from a re-analysis of the deposited data

How the results depend on the processing

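The counts of genes and members called, and the correlation among members, changed with the treatment of unwanted variation, and the cause was not tested. In the main fit above, without RUVr, the genes called were 0 in males, 1 in females, 19 pooled and 0 in the interaction. With 1, 2 and 3 RUVr factors they were 16, 71 and 86 in males, 1898, 1945 and 2051 in females, 92, 118 and 130 pooled and 2102, 2223 and 2393 in the interaction. With the adjusted p alone they were 67, 242 and 389, then 7667, 8050 and 8459, then 2066, 2297 and 2825, then 5363, 5704 and 6264. Members called rose from 0 to 1 with 3 factors in males and in the interaction, and with the adjusted p alone to 2 in males with 3 factors, to 6, 6 and 7 in females, to 4, 4 and 6 pooled and to 1, 1 and 2 in the interaction. With the receptor share as covariate 6 genes were called in males and 22 in females, and with only the 6 lungs of a sex 2 and 80. In females TMM gave 0, no filter 8, background subtraction 0, DESeq2 89 and leaving out the 2 lungs of highest receptor share 117. Pooled, background subtraction gave 10 and DESeq2 40. Leaving out 1 lung at a time gave 0 to 1 genes in males, 0 to 206 in females, 3 to 37 pooled and 0 to 0 in the interaction, and 0 to 0 members in all 4 comparisons. The median r among members went from 0.871 to 0.444 after removal of the receptor share and was 0.826 to 0.899 without each lung.

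Replicate numbers did not pair the lungs, since the deviations of same-numbered lungs correlated at 0.22, -0.33 and -0.49. With the replicate block 0 members were called, and 2 genes were called pooled. In females the block was fitted to the 6 female lungs alone and 451 genes were called (80 in those lungs without it). Room air female 6 and hyperoxia female 4 share their number with no other female lung. The exposure effect in that fit therefore rests on lungs 2 and 5 of each exposure, with very few residual degrees of freedom. Its count cannot be compared with the 80. A block could not be fitted in males, who share 1 number.

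Among the members' log2 fold changes under the alternatives, 985 kept their side of the threshold, and these include sign changes smaller than the standard error. Pooled *Eln* changed sign in 12 of 23 alternatives. Another 14 changed sign by more than the standard error, and 41 passed under RUVr. Each RUVr fit was counted under the full rule and again under the adjusted p alone. By the full rule 2 passed, with 3 factors (*Lox* in males and in the interaction), and both are counted again among the rest. Of the ratios to *Eln*, 134 kept their direction and their side of the threshold, and 1 (*Lox* relative to all members) passed. The background share of counts was largest for *Loxl2*, *Efemp2* and *Emilin1* among the members, and 3 lungs per group limit all comparisons.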

Other observations

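On the scale of counts per *Eln* count, chosen after the values were seen, some genes of the matrix lay lower after hyperoxia at an exact permutation p under 0.05, and 0 of the pathway and marker genes lay higher. Among fibulins and proteoglycans 3 of 9 passed, namely *Hspg2*, which encodes perlecan (log2 -0.27, exact permutation p = 0.015), *Bgn*, biglycan (-0.21, p = 0.02), and *Efemp1* (-0.36, p = 0.045). Among proteases 2 of 7 passed, *Mmp2*, a gelatinase that also cleaves elastin (-0.25, exact permutation p = 0.015), and *Ctss* (-0.41, p = 0.04). Of 4 protease inhibitors 1 passed, *Timp2*, an inhibitor of metalloproteinases (-0.25, exact permutation p = 0.03), and of 10 growth factors and integrins 1, *Itgb6* (-0.24, p = 0.035). Of 14 other microfibril genes and 8 other crosslinking genes, the lists nearest to the elastic fibre, 0 passed. Of the 14604 genes with a mean of at least 10 CPM, 4.98% passed in that direction. Correction over all of them could not be passed by a single gene, since 400 arrangements give no p under 0.005.

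Among markers, 2 of 6 endothelial genes, *Cldn5* (log2 -0.36, exact permutation p = 0.02) and *Cdh5* (-0.22, p = 0.03), 1 of 7 epithelial genes, the alveolar type 1 gene *Ager* (-0.22, p = 0.04) and 2 of 4 cardiac genes, *Actc1* (-1.15, p = 0.015) and *Myh6* (-0.68, p = 0.04) lay lower on that scale, to be read against the same 4.98% of all genes. Of the 11 lung fibroblast markers 0 passed, and of 7 smooth muscle markers 0. The part of cell makeup in the ratios was not tested.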
